A study of Homo sapiens with 9 samples.

Results

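The clustered protocadherins are cell-surface adhesion proteins of the cadherin superfamily, encoded on human chromosome 5 in 3 neighbouring arrays named alpha, beta and gamma. In the alpha and gamma arrays each gene has its own promoter and its own large first exon, which encodes the extracellular repeats and the membrane span, and that exon is spliced to a few short exons at the 3′ end of the array that every member shares. The shared exons encode a common cytoplasmic tail. Beta genes are single large exons with no shared tail. In neurons each cell uses a few of these promoters, a choice tied to CTCF, cohesin and promoter methylation, and the C-type genes nearest the shared exons are known to follow other rules than the rest. In epithelial tumours the arrays are known as regions that often carry dense methylation.

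Levels of these genes were read in the breast cancer line MDA-MB-231, which lacks hormone receptors and HER2, after lentiviral delivery of 1 short hairpin RNA and puromycin selection. The groups were a scrambled hairpin (shScr) and 2 hairpins against CTDP1 (shCTDP1-#1 and shCTDP1-#2), a phosphatase of the RNA polymerase II C-terminal domain, with 3 libraries each; all 9 libraries come from transduced, selected cells, and untransduced cells were not analysed here. The labels leave unsaid whether a group's libraries are separate cultures, so a p-value here covers the spread among libraries, and that spread may be technical. In bulk RNA, fewer cells using a gene and less RNA per cell cannot be told apart. Values are listed by hg19 position without symbols; CTDP1 itself and the markers of the cell line were therefore not analysed here.

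Members were chosen by position alone: every interval lying wholly between 140160000 and 140895000 of chromosome 5. Of 57773 rows in each file, 28 met this on the sequence named chr5, and nearly all of those were gamma: 24 in the gamma array (from 140700000), 1 in the alpha array (up to 140392000), 1 in the beta array (140430000 to 140630000) and 2 between arrays. The alpha and beta arrays themselves are listed on a patch sequence, HG1082_HG167_PATCH, which carries the same numbering: 37 intervals there lay within the same bounds, 16 in alpha, 20 in beta and 1 between beta and gamma. The patch intervals were added after the files were seen, because without them alpha and beta would hold 1 interval each, so the set described here has 65 intervals. Positions on the patch can differ by a few bases from chr5 itself. Whether the authors' reference also held copies of these genes on chr5, to which reads could have gone, is not given in the sources used here.

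The layout of the intervals has the features of the family even without gene names. In alpha, 15 of 17 intervals ended within 10 bases of 140391929 from different starts, and in gamma 20 of 24 ended within 10 bases of 140892546. No beta interval shared an end, and beta spans ran from 1.97 to 4.81 kb, against up to 226 kb in alpha and up to 182 kb in gamma. GENCODE release 29, an annotation of another build used here only for names and counts, lists 16 PCDHA, 19 PCDHB and 24 PCDHG genes. No interval is assigned to one of those symbols here.

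What the shared tail does to the measurement can be seen in the transcripts. The lines below show 3 PCDHA and 3 PCDHG transcripts of GENCODE release 29 across the splice junction, 40 bases on each side, 5′ to 3′. Capitals mark the bases that all 3 share, the start of the common exons; lower case is the end of each gene's own exon. They were chosen as examples of the A-, B- and C-type genes and stand for no particular interval.
PCDHA1: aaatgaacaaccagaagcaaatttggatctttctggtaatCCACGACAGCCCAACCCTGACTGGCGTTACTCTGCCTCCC
PCDHAC1: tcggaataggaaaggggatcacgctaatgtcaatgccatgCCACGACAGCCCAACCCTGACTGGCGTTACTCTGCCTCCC
PCDHAC2: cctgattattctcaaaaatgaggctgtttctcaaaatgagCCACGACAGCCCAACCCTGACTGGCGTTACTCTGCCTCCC
PCDHGA1: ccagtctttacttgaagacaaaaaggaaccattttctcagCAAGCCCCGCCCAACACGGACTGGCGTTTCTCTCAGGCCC
PCDHGB1: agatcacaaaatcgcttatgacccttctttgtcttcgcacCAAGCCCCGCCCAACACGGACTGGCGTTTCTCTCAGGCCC
PCDHGC3: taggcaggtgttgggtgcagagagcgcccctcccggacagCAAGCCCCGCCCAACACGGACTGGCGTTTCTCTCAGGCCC

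Left of the junction the letters differ from gene to gene, and right of it they are the same within an array. With 1 transcript per protein-coding gene, the longest exact run that a pair of genes shared was 2181 to 2190 bases over 231 pairs of 22 gamma genes, in transcripts of 4578 to 4778 bases. In alpha it was 2866 to 2872 bases over 105 pairs of 15 genes. Counted in words of 50 bases, 45.3% to 57.7% of a gamma transcript and 47.7% to 68.9% of an alpha transcript also occurred in another gene of its array. Among 16 beta genes the median longest run was 120 bases, the longest 464, and 0% to 45.7% of a transcript's words occurred in another beta gene. Reads from the common exons are divided between overlapping intervals by the authors' software, so a level of 1 alpha or gamma interval rests on its own exon and on that division, while the sum over an array depends far less on how reads are divided within it. Beta values can also be affected, for the pairs with long common runs.

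Most of the family was at or near 0 in these cells, and the expressed part was a handful of beta and gamma intervals. Values are in TPM, transcript abundance corrected for length and brought to a common library total. Levels of different intervals can be compared only within the limits given above, the division of shared reads and possible further copies of patch genes. Of the 65 intervals, 4 alpha, 2 beta, 1 gamma and 1 between arrays were listed at 0 in all 9 libraries. The shScr libraries had values above 0 in 39 to 47 of the 65 intervals, shCTDP1-#1 in 42 to 45 and shCTDP1-#2 in 43 to 49, and these ranges overlapped. Intervals were tested where at least 3 libraries reached 1 TPM: 0 of 17 in alpha, 6 of 21 in beta, 3 of 24 in gamma and 2 of 3 between arrays.

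**Figure D1:**
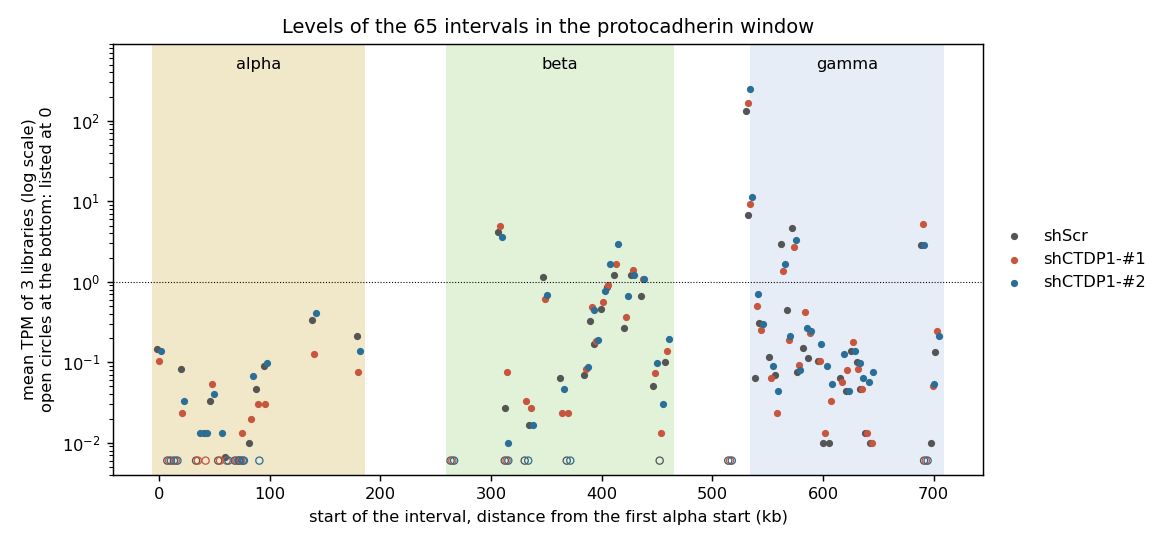
Mean TPM of each of the 65 intervals (3 libraries per group, log scale) against the start of the interval, in kb from the first alpha start, with each array shaded and the groups drawn slightly side by side; open circles at the bottom are intervals listed at 0 in all libraries of that group, and the dotted line is 1 TPM. Alpha stays below the line in every group, and the 2 high points before gamma are the intervals between arrays, at 532 and 534 kb.

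Across the series, the shScr libraries listed 19553 to 20063 intervals above 0 and the knockdown libraries 21562 to 22491. In shScr replicate 1 the mitochondrial share of TPM was 4.47%, the highest of the 9 libraries; results that changed without that library are named below. Over all tested intervals, 61.6% of those called with shCTDP1-#2 were higher, and 50.3% after median-of-ratios scaling; between the hairpins these were 60.2% and 50.5%.

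Changes were common across the series, and the members are read against that background. Of the 9 tested beta and gamma intervals, 4 passed with shCTDP1-#1, 1 higher and 3 lower, where 63.1% of all 15011 tested intervals passed (35.4% higher, 27.7% lower). With shCTDP1-#2 4 passed, 2 higher and 2 lower, beside 64% of all (39.5% higher, 24.6% lower). Between the hairpins 4 passed, 2 higher and 2 lower with shCTDP1-#2, beside 50.2% (30.2% higher, 20% lower). The groups did not overlap in 7, 6 and 4 of the 9 in these comparisons, beside 67.8%, 67.9% and 58% of all tested intervals. The median log2 difference of the 9 was 0.10 with shCTDP1-#1 and 0.00 with shCTDP1-#2, beside 0.07 and 0.13 over all tested intervals. Both comparisons use the same shScr libraries, and 3 of the 9 passed the filter only through one side of a comparison, as given below.

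Members under the filter were mostly without a clear difference. Of the 38 that were above 0 in at least 3 libraries, 4 were higher and 2 lower without overlap with shCTDP1-#1, where 26.3% of the 8163 such intervals in the series did not overlap (22.1% higher, 4.25% lower). With shCTDP1-#2 7 were higher and 0 lower, beside 24.1% (20.2% higher, 3.9% lower). Between the hairpins 3 were higher and 0 lower with shCTDP1-#2, beside 15.9% (8.01% higher, 7.89% lower).

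The changes with the smallest adjusted p among the arrays with shCTDP1-#1 lay in gamma, where 2 intervals in the 5′ part of the array fell with both hairpins and 1 near the shared exons rose with shCTDP1-#1. The interval from 140729828 to 140892546 (564 kb in the plots) stood at 2.93, 3.30 and 2.68 TPM in the shScr libraries, at 1.22, 1.32 and 1.59 TPM with shCTDP1-#1 and at 1.64, 1.73 and 1.55 TPM with shCTDP1-#2. All 6 knockdown libraries lay below all 3 shScr libraries. Its mean was 2.97 ± 0.31 TPM (SD, n = 3) with shScr, 1.38 ± 0.19 with shCTDP1-#1 and 1.64 ± 0.09 with shCTDP1-#2. Differences are given on the log2(TPM + 1) scale, which understates changes of low levels; there the interval fell by 0.74 (SE 0.13, limma adjusted p = 5.8e-04) with shCTDP1-#1 and by 0.59 (SE 0.13, limma adjusted p = 0.0026) with shCTDP1-#2. Between the hairpins the difference was 0.15 (95% interval -0.14 to 0.45, limma adjusted p = 0.36), which does not pass and does not show that they act alike.

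The interval from 140739703 to 140892546 (574 kb) had the highest mean of the array intervals with shScr, at 5.02, 4.72 and 4.04 TPM. It was at 2.75, 2.59 and 2.71 TPM with shCTDP1-#1 and at 3.86, 3.44 and 2.59 TPM with shCTDP1-#2. No knockdown library reached the lowest shScr value, and the shCTDP1-#2 libraries were more spread than the shCTDP1-#1 libraries. It fell by 0.60 (SE 0.14, limma adjusted p = 0.0030) with shCTDP1-#1 and by 0.39 (SE 0.14, limma adjusted p = 0.029) with shCTDP1-#2. The second call was lost without shScr replicate 1 (a fall of 0.33), shScr replicate 2 (0.37) or shCTDP1-#2 replicate 3 (0.26), and when intervals of all levels were tested (adjusted p = 0.0502). This interval and the one at 564 kb end at the same base and overlap over the whole of the shorter one.

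The interval from 140855580 to 140892542 (690 kb) starts close to the shared exons, where the C-type genes lie. It was at 2.59, 3.18 and 2.90 TPM with shScr, at 4.74, 4.83 and 5.98 TPM with shCTDP1-#1 and at 2.58, 3.03 and 3.09 TPM with shCTDP1-#2. The shCTDP1-#1 libraries lay above all others, while shCTDP1-#2 and shScr overlapped. It rose by 0.67 (SE 0.13, limma adjusted p = 9.0e-04) with shCTDP1-#1, from a mean of 2.89 to 5.18 TPM. With shCTDP1-#2 the difference from shScr was 0.00 (95% interval -0.28 to 0.28, limma adjusted p = 0.98). The hairpins differed by -0.66 (shCTDP1-#2 minus shCTDP1-#1, SE 0.13, limma adjusted p = 0.0013).

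The summed gamma level hid the opposite changes seen with shCTDP1-#1. With shCTDP1-#2 no tested gamma interval passed as higher. The sum over all 24 gamma intervals was 12.5 ± 0.96 TPM (SD, n = 3) with shScr, 11.9 ± 0.78 with shCTDP1-#1 and 10.95 ± 0.52 with shCTDP1-#2. The ranges overlapped in each comparison, with exact two-sided permutation p = 0.7 for shCTDP1-#1 against shScr, 0.2 for shCTDP1-#2 against shScr and 0.2 between the hairpins; 3 against 3 libraries cannot go below 0.1. After median-of-ratios scaling the difference of shCTDP1-#2 from shScr went from -1.52 to -2.60 TPM, with exact permutation p = 0.1. The make-up of the sum was where the groups parted. The interval at 690 kb held 20.3%, 24.0% and 25.4% of the gamma sum in the shScr libraries, and 41.2%, 42.1% and 46.6% in the shCTDP1-#1 libraries. The intervals at 564 and 574 kb held 23.8% ± 0.99 and 36.8% ± 2.2 of it with shScr (SD, n = 3), against 11.5% ± 0.89 and 22.5% ± 1.4 with shCTDP1-#1. With shCTDP1-#2 the share at 564 kb was 14.86% to 15.08%, that at 574 kb 24.8% to 35.2% and that at 690 kb 23.5% to 29.6%. Each share differed between shCTDP1-#1 and shScr with no overlap (exact permutation p = 0.1, the smallest this design allows). With shCTDP1-#2 the first 2 shares lay below every shScr library (exact permutation p = 0.1), and the share at 690 kb overlapped (exact permutation p = 0.3). Shares of 1 sum are not independent of each other, and the shares rest on how reads of the common exons were divided. They are computed from the same TPM values as the limma differences above, so they restate those differences and are no separate support.

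**Figure D2:**
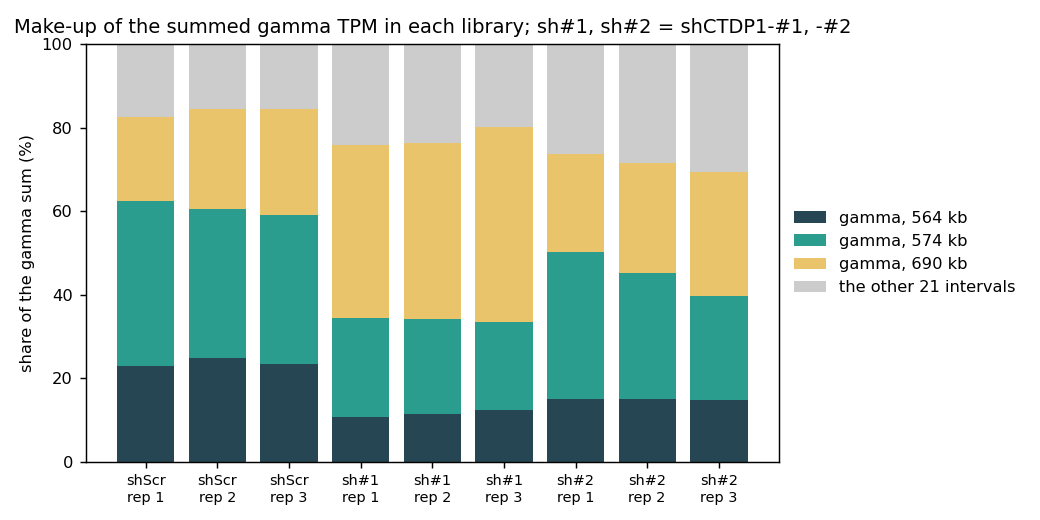
Share of the summed gamma TPM (percent, stacked) held by the 3 tested gamma intervals and by the other 21 together, in each of the 9 libraries. The yellow block, at 690 kb, takes 41.2% to 46.6% in the shCTDP1-#1 libraries and 20.3% to 29.6% in the others.

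The other 21 gamma intervals did not reach 1 TPM in 3 libraries; the highest single value was 1.05 TPM. That value came from the interval from 140705777 to 140708924 (540 kb), the first of the gamma bounds and 1 of the 4 that do not end at the shared exons. It was at 0.05, 0.08 and 0.06 TPM with shScr, at 0.53, 0.49 and 0.49 with shCTDP1-#1 and at 0.64, 1.05 and 0.41 with shCTDP1-#2. All 6 knockdown libraries lay above the shScr libraries, and the ratio of mean TPM to shScr was 7.95 with shCTDP1-#1 and 11.1 with shCTDP1-#2. In a limma fit with no filter on level, which covered 28927 intervals, it was higher by 0.50 (SE 0.14, limma adjusted p = 0.024) and by 0.66 (SE 0.14, limma adjusted p = 0.0059). This interval was singled out after its values were seen, as were the next 3. The interval from 140749831 to 140892546 was at 0.17, 0.09 and 0.19 TPM with shScr and at 0.56, 0.36 and 0.33 with shCTDP1-#1, and the interval from 140753651 was at 0.15, 0.09 and 0.10 against 0.28, 0.19 and 0.22. Neither passed with shCTDP1-#1 in the fit with no filter (limma adjusted p = 0.068 and 0.28). With shCTDP1-#2 they were at 0.23, 0.36 and 0.21 TPM and at 0.21, 0.31 and 0.22 TPM, also above all shScr libraries. That fit did not call them with shCTDP1-#2 either (limma adjusted p = 0.40 and 0.22). The interval from 140767452 to 140892546 did pass there with shCTDP1-#2 (limma adjusted p = 0.036), at 0.03, 0 and 0 TPM with shScr, 0.04, 0 and 0 with shCTDP1-#1 and 0.07, 0.10 and 0.10 with shCTDP1-#2. That fit covered 46 alpha, beta and gamma intervals under the filter. Of these, limma called 1 with shCTDP1-#1, 2 with shCTDP1-#2 and 0 between the hairpins. At an unadjusted limma p under 0.05 these were 2, 5 and 3. Of all 28927 intervals, 9684, 9656 and 7119 were called by limma. The 28927 include the 15011 that pass the filter, so they are no measure for intervals under it, whose called share was not computed. Of the intervals next to the shared exons at 699 and 703 kb, the first ran from 0 to 0.15 TPM and the second from 0.07 to 0.37 TPM over the 9 libraries.

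Among beta intervals, changes went in both directions and most did not pass. The interval from 140474228 to 140476963 on the patch (308 kb) was the most abundant beta member in every group. It was at 3.87, 4.11 and 4.31 TPM with shScr, at 4.58, 4.86 and 5.36 with shCTDP1-#1 and at 3.67, 4.23 and 2.87 with shCTDP1-#2. Neither hairpin passed against shScr: the log2 difference was 0.22 (SE 0.13, limma adjusted p = 0.16) with shCTDP1-#1 and -0.16 (SE 0.13, limma adjusted p = 0.30) with shCTDP1-#2. The hairpins differed from each other by -0.38 (SE 0.13, limma adjusted p = 0.031), a call lost without shCTDP1-#1 replicate 2 (-0.39) or 3 (-0.33) or shCTDP1-#2 replicate 1 (-0.40) or 3 (-0.26). At the same difference it was also lost with no filter (limma adjusted p = 0.056), with the replicate number as a block (0.0502) and with only the compared groups fitted (0.056).

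The interval from 140579195 to 140582630 (413 kb) rose with shCTDP1-#2. It was at 1.26, 1.33 and 1.04 TPM with shScr, at 1.72, 1.54 and 1.73 with shCTDP1-#1 and at 3.29, 2.47 and 3.17 with shCTDP1-#2. The 3 groups did not overlap, with shScr lowest and shCTDP1-#2 highest. The change with shCTDP1-#2 was 0.84 (SE 0.14, limma adjusted p = 3.5e-04), a ratio of mean TPM of 2.46. With shCTDP1-#1 it was 0.27 (SE 0.14, limma adjusted p = 0.11), which did not pass. The difference between the hairpins did (0.57, SE 0.14, limma adjusted p = 0.0057).

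Its upstream neighbour, from 140571954 to 140575227 (406 kb), was at 0.78, 0.84 and 0.93 TPM with shScr, at 0.90, 1.09 and 0.77 with shCTDP1-#1 and at 1.6, 2.12 and 1.24 with shCTDP1-#2. The shCTDP1-#2 libraries lay above the other 6. It reached 1 TPM in 4 libraries, all of them knockdown libraries, so it entered the test through the side where it is high, and its calls are no support for a rise among the members. It rose by 0.51 (SE 0.17, limma adjusted p = 0.021) with shCTDP1-#2, a call lost without shScr replicate 1 (0.48), shScr replicate 2 (0.50) or shCTDP1-#2 replicate 2 (0.38). With shCTDP1-#1 the difference was 0.05 (SE 0.17, limma adjusted p = 0.81). The difference between the hairpins was 0.46 (SE 0.17, limma adjusted p = 0.041) and its call was lost under most alternatives. Its size was 0.46 with no filter, with the block and with only the compared groups. It was 0.42 and 0.41 with upper-quartile and median-of-ratios scaling, and 0.33 to 0.57 on leaving out libraries. With a pseudocount of 0.1 TPM it was 0.76 and the call was lost (limma adjusted p = 0.054). With a pseudocount of 0.5 TPM it was 0.59 and the call was kept (limma adjusted p = 0.044).

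The interval from 140514803 to 140517706 (349 kb) went the other way. It was at 1.22, 1.04 and 1.18 TPM with shScr, at 0.71, 0.44 and 0.66 with shCTDP1-#1 and at 0.80, 0.78 and 0.49 with shCTDP1-#2. All knockdown libraries lay below all shScr libraries. It passed the filter only through the 3 shScr libraries, so a lower value elsewhere was built into its selection. It fell by 0.42 (SE 0.16, limma adjusted p = 0.041) with shCTDP1-#1, a call lost on leaving out any 1 of the 6 libraries compared (-0.47 to -0.35), with a pseudocount of 0.1 TPM (adjusted p = 0.057) or with the replicate block (adjusted p = 0.061), and differed by -0.35 (SE 0.16, limma adjusted p = 0.082) with shCTDP1-#2. As a share of the beta sum it held 10.7% ± 1.3 (SD, n = 3) with shScr, 4.74% ± 1.03 with shCTDP1-#1 and 4.96% ± 0.87 with shCTDP1-#2. This share uses the same selected values, so it is no separate support for a fall. The beta sum it is taken of was itself higher with both hairpins on the deposited scale.

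The last 2 tested beta intervals passed in no comparison. The interval from 140593522 to 140597006 (428 kb) was at 1.12, 1.38 and 1.11 TPM with shScr, at 1.55, 0.88 and 1.74 with shCTDP1-#1 and at 1.30, 1.19 and 1.20 with shCTDP1-#2, with all groups overlapping. The interval from 140602944 to 140605871 (437 kb) was at 0.46, 0.79 and 0.75 TPM with shScr, at 0.97, 1.10 and 1.20 with shCTDP1-#1 and at 1.35, 1.10 and 0.82 with shCTDP1-#2. Its knockdown libraries all lay above its shScr libraries, with log2 differences of 0.33 (SE 0.17, limma adjusted p = 0.11) and 0.32 (SE 0.17, limma adjusted p = 0.11). It too reached 1 TPM in 4 libraries, all of them knockdown libraries.

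**Figure D3:**
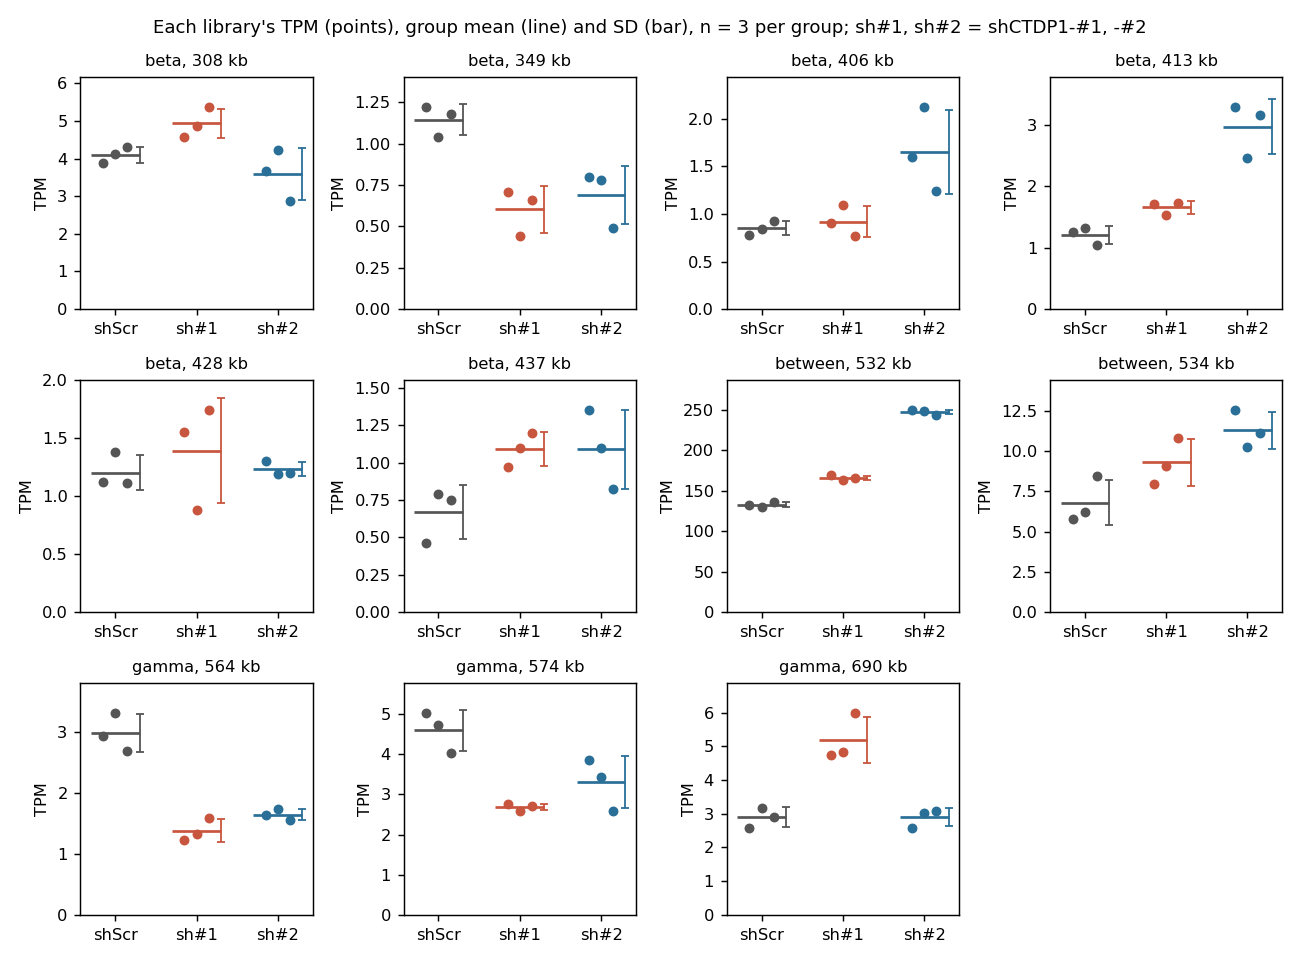
TPM of the 11 tested intervals in each library (points), with the group mean (line) and SD (bar), n = 3 per group; panels are named by array and by distance of the start from the first alpha start. At 564 and 574 kb both knockdown groups sit below shScr, at 690 kb only shCTDP1-#1 sits apart, and at 413 kb the 3 groups are separate.

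The other 15 beta intervals stayed at or below 0.81 TPM. The highest of them, from 140566904 to 140571123, was at 0.53, 0.49 and 0.35 TPM with shScr and at 0.72, 0.81 and 0.76 with shCTDP1-#2. It adjoins the interval at 406 kb. The interval from 140588282 to 140591709, downstream of the one at 413 kb, was at 0.25, 0.41 and 0.14 TPM with shScr and at 0.70, 0.51 and 0.78 with shCTDP1-#2. Both pairs of groups were separate and neither passed in the fit with no filter (limma adjusted p = 0.094 and 0.054); both were singled out after their values were seen. The sum over all 21 beta intervals was 10.39, 11.15 and 10.61 TPM with shScr, 12.54, 12.15 and 13.40 with shCTDP1-#1 and 14.57, 14.35 and 12.40 with shCTDP1-#2. On the deposited scale the lowest knockdown value exceeded the highest shScr value (exact two-sided permutation p = 0.1 for either hairpin, the smallest possible). The hairpins overlapped (exact permutation p = 0.3). On that scale the median log2 difference of all tested intervals with shCTDP1-#2 was 0.13, and it was 0.01 after median-of-ratios scaling. The 6 tested intervals held 79.0% to 87.8% of the beta sum.

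Alpha was the lowest array, with no interval above 0.65 TPM in any library. Its most abundant interval, from 140306302 to 140391929, was at 0.29, 0.47 and 0.25 TPM with shScr, at 0.11, 0.16 and 0.11 with shCTDP1-#1 and at 0.36, 0.65 and 0.22 with shCTDP1-#2. The next, from 140345820 to 140391936, was at 0.22, 0.20 and 0.21 TPM with shScr, at 0.04, 0.07 and 0.12 with shCTDP1-#1 and at 0.08, 0.21 and 0.12 with shCTDP1-#2. These start nearest to the shared alpha exons. In both, the shCTDP1-#1 libraries lay below all shScr libraries, without passing in the fit with no filter (limma adjusted p = 0.22 and 0.13). The first alpha interval, from 140165876, was at 0.15, 0.12 and 0.17 TPM with shScr, at 0.04, 0.08 and 0.19 with shCTDP1-#1 and at 0.03, 0.13 and 0.25 with shCTDP1-#2, with overlapping groups.

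The summed alpha level was 0.94, 1.01 and 0.98 TPM with shScr, 0.35, 0.49 and 0.59 TPM with shCTDP1-#1 and 0.89, 1.27 and 0.72 TPM with shCTDP1-#2. The shCTDP1-#1 libraries lay below all others, at a ratio of mean TPM of 0.488 to shScr (exact two-sided permutation p = 0.1, the smallest possible). The shCTDP1-#2 libraries lay on both sides of shScr (exact permutation p = 1) and above those of shCTDP1-#1 (exact permutation p = 0.1). TPM keeps no read number, so how many reads stand behind a sum near 1 TPM is unknown.

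**Figure D4:**
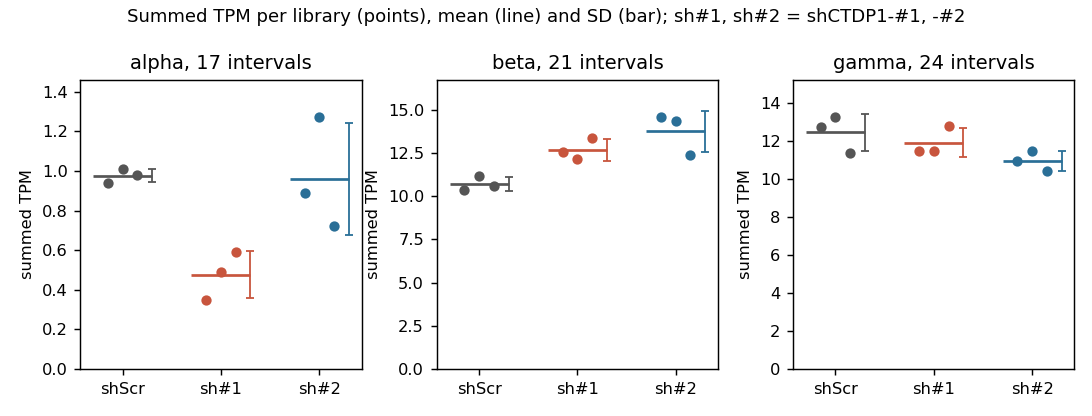
Summed TPM of all alpha, beta and gamma intervals in each library (points), with the group mean (line) and SD (bar), n = 3 per group. All values are on the deposited scale. On it, alpha is low with shCTDP1-#1 only (0.35 to 0.59 TPM). Beta is higher in both knockdown groups (12.15 to 14.57 against 10.39 to 11.15 TPM), and the gamma groups overlap.

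The order of levels within the family differed between groups. With shScr the gamma interval at 574 kb (4.59 ± 0.50 TPM, SD, n = 3) and the beta interval at 308 kb (4.10 ± 0.22) came first and overlapped, followed by the gamma intervals at 564 kb (2.97 ± 0.31) and 690 kb (2.89 ± 0.30), which overlapped too. With shCTDP1-#1 the gamma interval at 690 kb (5.18 ± 0.69) and the beta interval at 308 kb (4.93 ± 0.40) led and overlapped, with the gamma interval at 574 kb at 2.68 ± 0.08. With shCTDP1-#2 the beta interval at 308 kb (3.59 ± 0.68), the gamma interval at 574 kb (3.30 ± 0.65), the beta interval at 413 kb (2.98 ± 0.44) and the gamma interval at 690 kb (2.90 ± 0.28) were within each other's spread.

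**Figure D5:**
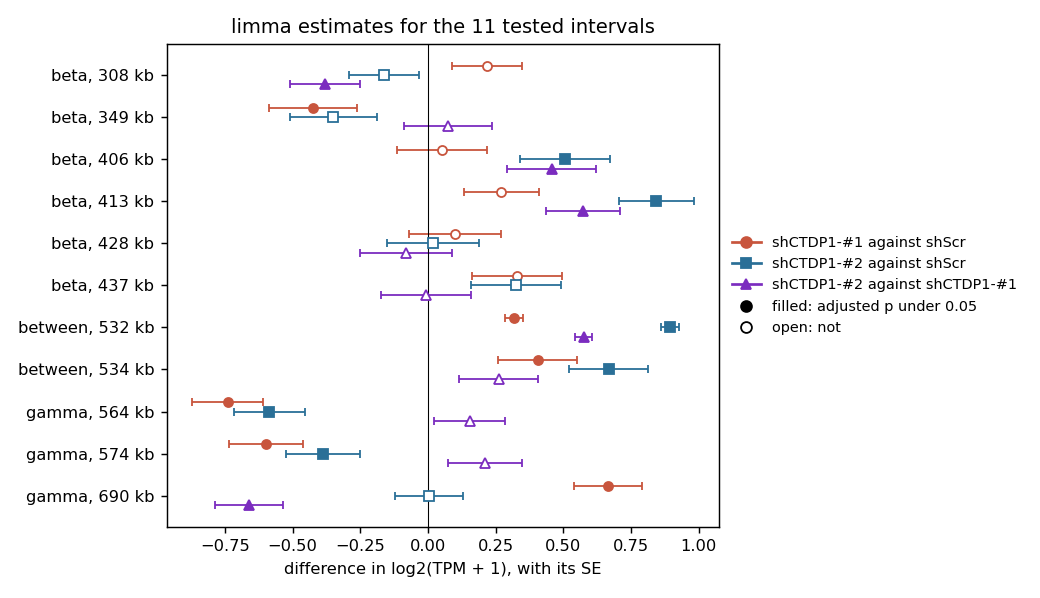
Differences in log2(TPM + 1) with their SE for the 11 tested intervals, for each hairpin against shScr and for shCTDP1-#2 against shCTDP1-#1; filled symbols have a limma adjusted p under 0.05. Gamma at 564 and 574 kb is left of 0 with both hairpins, and gamma at 690 kb is right of 0 with shCTDP1-#1 (0.67) and at 0.00 with shCTDP1-#2.

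The interval lying between beta and gamma was far higher than any array member and rose with both hairpins. This interval, from 140698057 to 140700330 (532 kb), was at 132.13, 129.55 and 135.71 TPM with shScr, at 168.61, 162.80 and 164.93 with shCTDP1-#1 and at 249.08, 247.91 and 243.84 with shCTDP1-#2. The 3 groups were well apart, and it rose by 0.32 (SE 0.03, limma adjusted p = 1.1e-05) and by 0.89 (SE 0.03, limma adjusted p = 1.0e-08). The interval from 140699661 to 140700339 (534 kb) overlaps it, and because the library kit does not mark strand, reads of the overlap cannot be told apart. It was at 6.81 ± 1.42 TPM (SD, n = 3) with shScr, 9.30 ± 1.44 with shCTDP1-#1 and 11.3 ± 1.2 with shCTDP1-#2, and passed with both hairpins (limma adjusted p = 0.031 and 0.0022). The first call was lost without shScr replicate 1 (0.31) or 2 (0.36) or shCTDP1-#1 replicate 2 (0.42) or 3 (0.30), with no filter (0.41, adjusted p = 0.068) and with median-of-ratios scaling (0.35, adjusted p = 0.054).

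In the flanks, 57 intervals lay wholly within 1 Mb on either side of the window on chr5, and 32 of them were tested. With shCTDP1-#1 12 rose, 7 fell and 13 did not pass, with a median log2 difference of 0.09. With shCTDP1-#2 15 rose, 8 fell and 9 did not pass, with a median of 0.16. Between the hairpins 7 were higher and 9 lower with shCTDP1-#2, with a median of -0.04. Over all tested intervals the medians were 0.07, 0.13 and 0.07 in these 3 comparisons, and the called shares were the 63.1%, 64% and 50.2% given above.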

How the data were processed

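STAR, RSEM and the build hg19 are named per the submitters' processing notes, with no versions; the annotation is not given in the sources used here. Each deposited value is a TPM, 1 per interval and library, which the authors' software scaled to the same total in each, so depth is unknown and no counting interval is given. All 9 files were joined on coordinates; 2246 rows whose interval occurs more than once were dropped, none of them a member. All 37 mitochondrial intervals matched GENCODE release 29 at both ends, so starts count from 1. Intervals at 1 TPM or more in at least 3 libraries were fitted on log2(TPM + 1) with limma 3.58.1 (trend, robust; R 4.3.3, statmod 1.5.0), all 9 libraries together, Benjamini-Hochberg adjusted over 15011 intervals, threshold 0.05; the code was tested on simulated data. Array sums and shares had exact permutation tests (scipy 1.17.1). By rule, every tested member and the 3 most abundant of each array are given. Members, lists and rules were chosen with earlier results of these data known. Positions on the drawings count from the first alpha start. The list of regulator genes needs gene symbols and was not used here.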

Additional observations from a re-analysis of the deposited data

Results flagged for a closer look

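In 5 intervals the 2 hairpins gave different levels by limma's test of shCTDP1-#2 minus shCTDP1-#1 on the log2 scale. The differences were -0.38 for the beta interval at 308 kb, 0.46 for the beta interval at 406 kb, 0.57 for the beta interval at 413 kb, 0.58 for the interval between arrays at 532 kb and -0.66 for the gamma interval at 690 kb. This test called 50.2% of all 15011 tested intervals, and the interval at 406 kb entered it only through knockdown libraries. The level of CTDP1 was not analysed here, so its part in these differences was not tested.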

How the results depend on the processing

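Of the counts of called array intervals, that of shCTDP1-#1 was 4 and became 0 when tested against a 1.5-fold change; left-out libraries gave 3 to 4. That of shCTDP1-#2 was 4 and became 0 against 1.5-fold and 2 when only chr5 intervals were kept, which leaves 3 to test; left-out libraries gave 2 to 4, the 2 without shScr replicate 1 or 2. Between the hairpins 4 became 2 with no filter, 0 against 1.5-fold, 2 with the replicate number as a block, 2 when only the compared groups were fitted and 1 on chr5 alone; left-out libraries gave 2 to 3. Against 1.5-fold, limma called 2057 of all 15011 tested intervals with shCTDP1-#1, 2005 with shCTDP1-#2 and 663 between the hairpins. That limit applies to TPM + 1, which changes less than TPM at low levels. A count of 0 does not mean that no member changed 1.5-fold in TPM: at 413 kb the ratio of mean TPM with shCTDP1-#2 was 2.46. The chr5-only alternative was chosen after seeing the data. The cause of the other changes was not tested. Same-numbered libraries were not paired in the main fit. The correlation of their deviations was -0.01 to 0.05, beside -0.05 to 0.02 for libraries of other numbers. Among the libraries of the other groups, 8 of 9 libraries correlated best with their own number, so these values are no ground against pairing. With the replicate block shCTDP1-#1 had 3 calls and shCTDP1-#2 had 4. The calls lost were at 349 kb with shCTDP1-#1, and at 308 and 406 kb between the hairpins.

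Directions changed only for differences that did not pass. Against shScr with shCTDP1-#2, the beta interval at 428 kb was at -0.021 with upper-quartile and -0.054 with median-of-ratios scaling, and the gamma interval at 690 kb at -0.050 and -0.10; that last scaling moved the median of all tested intervals from 0.13 to 0.01. On leaving out libraries, the difference between the hairpins ran from -0.00086 to 0.16 at 349 kb, from -0.25 to 0.026 at 428 kb and from -0.095 to 0.0895 at 437 kb. Against shScr it ran from -0.012 to 0.11 at 406 kb and from -0.0068 to 0.26 at 428 kb with shCTDP1-#1, and from -0.011 to 0.076 at 428 kb and from -0.053 to 0.064 at 690 kb with shCTDP1-#2. The gamma sum with shCTDP1-#2 minus shScr was -1.52 TPM and -2.60 after median-of-ratios scaling (exact permutation p = 0.1). Calls that passed in the report kept their direction in all settings run; the beta interval at 349 kb passed with shCTDP1-#2 under median-of-ratios scaling (-0.41). Low levels limit these values: TPM gives no read number, and most members lay under 1 TPM.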
